A study of Mus musculus with 7 samples.

Results

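The genes described here encode NF-kappaB subunits, proteins that switch NF-kappaB off again and other regulators of it (Nfkbiz, Bcl3 and Birc3). They are 10 genes in all out of 37074 gene names on the array. They were taken by name: every non-control probe that the scanner files assign to Nfkb1, Nfkb2, Relb, Nfkbia, Nfkbib, Nfkbie, Nfkbiz, Tnfaip3, Bcl3 or Birc3, which gave 22 probes. Of these, 20 were tested: in either wild-type or PRA transgenics, every array had a gland signal well above background. The other 2, a second probe of Bcl3 and 1 of 3 Nfkbiz probes, were not well above background in either channel on any array.

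RNA came from abdominal mammary glands of nulliparous FVB mice aged 20 to 25 weeks, taken at diestrus with the lymph nodes removed, 1 gland and 1 animal per array, and animals are numbered as the sample labels number them. The 3 wild-type animals (WT 1 to WT 3) were littermates of the 4 PRA transgenic animals (PRA 1 to PRA 4), which carried both CMV-GAL-4 and UAS-PR-A and so an additional gene for the A form of the progesterone receptor. The CMV promoter, which drives GAL-4, is not specific to mammary epithelium. Gland RNA was labelled with Cy5 and hybridised together with Cy3-labelled Universal Mouse Reference RNA, a pool from 11 cell lines, and the value used throughout is the log2 ratio of gland over reference, with no dye swap. In whole glands, fewer cells of a type and less RNA per cell cannot be told apart.

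NF-kappaB is a family of dimeric transcription factors held inactive in the cytoplasm by inhibitors of the IkappaB family. Signals from receptors of the TNF, interleukin 1 and Toll-like families activate the IkappaB kinase complex, the inhibitors are degraded, and the freed dimers enter the nucleus. Among the genes they then switch on are those of the inhibitors themselves, which ends the signal. In the mammary gland, RANKL (Tnfsf11), a progesterone-induced ligand, signals through RANK to the IkappaB kinases of luminal cells.

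A single slide held all 7 arrays, with row 1 given to wild-type and row 2 to PRA transgenics, so row and genotype cannot be told apart. Pairs of arrays correlated at r = 0.892 to 0.958 over 24664 probes detected in both channels. The gland channel was well above background for 64.6% ± 1.80 of probes in wild-type (SD, n = 3) and 58.6% ± 1.73 in PRA transgenics (SD, n = 4), and the reference channel for 53.2 to 54.0% and 47.2 to 50.6%. Both channels as deposited were dimmer on the PRA arrays, with a median difference of -0.20 (Cy5) and -0.22 (Cy3) on the log2 scale, whereas the median difference of the ratio was 0.02. The Pgr (progesterone receptor) probe that was well above background on all arrays ranged from 4.04 to 7.05 in wild-type and from 3.32 to 5.38 in PRA transgenics on the log2 ratio scale, a difference that did not pass the test (limma, adjusted p = 0.859), and whether it covers the transgene RNA was not given. Luminal keratin and cell adhesion markers (Krt8, Krt18, Krt19, Epcam, Cdh1) and basal markers were well above background on every array, as were white adipocyte markers.

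Most probes used here cover 60 adjacent bases of the genome, but those of Nfkb2, Nfkbia and Nfkbib shown next span a longer stretch of the mm9 genome than their own length and so join pieces of spliced RNA. They are shown because Nfkbia varied most between animals among the brightest probes of the members and Nfkbib least. In the order given, they cover chr12:56590945-56591440 on the minus strand, chr7:29544167-29544848 on the minus strand and chr19:46386146-46386285 on the plus strand.
Nfkbia A_51_P295192: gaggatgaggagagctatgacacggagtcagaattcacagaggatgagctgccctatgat
Nfkbib A_51_P259459: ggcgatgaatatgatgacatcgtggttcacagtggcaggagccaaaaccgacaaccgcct
Nfkb2 A_51_P454217: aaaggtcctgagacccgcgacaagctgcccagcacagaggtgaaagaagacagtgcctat

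Members of the family are known to be NF-kappaB targets, so their promoters were searched for the consensus kappaB motif on both strands, in windows of 300 bases that run from 250 before to 50 after each RefSeq start site (GRCm38.p6). Promoter windows were at hand for 7 of the 10 members and not for Nfkb1, Relb and Nfkbiz. The motif was found for 5 of these 7 (Nfkb2, Nfkbia, Nfkbie, Tnfaip3 and Bcl3) and not for Nfkbib or Birc3. Over all genes with a window, 1388 of 27025, or 5.14%, held it, and over all windows 4.51% did. A match is a match of letters and not a site shown to be bound. The stretches of 30 bases that follow, on the strand of the gene, hold 1 match upstream of a start site for each of 4 members, with the motif in capitals. The Nfkb2 match overlaps a further match on the opposite strand, 1 base along.
Nfkb2, chr19:46304688-46304717, plus strand: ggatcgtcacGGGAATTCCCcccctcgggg
Nfkbia, chr12:55492657-55492686, minus strand: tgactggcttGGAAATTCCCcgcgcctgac
Nfkbie, chr17:45555584-45555613, plus strand: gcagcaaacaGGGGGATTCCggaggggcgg
Tnfaip3, chr10:19015403-19015432, minus strand: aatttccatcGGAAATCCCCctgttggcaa

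The first question was whether these genes differed between the genotypes, and no member passed the test adjusted over all probes. Each gene is represented by its brightest probe, the one with the highest mean Cy5 signal. On that probe 8 of the 10 members were lower on average in PRA transgenic glands and 2, Nfkb1 and Nfkbib, were higher. Of all probes tested, 45.8% had a lower mean. The log2 fold changes of the members ran from -0.50 to 0.10, with a median of -0.26 beside 0.02 over all probes tested. Over all 20 member probes tested, 11 were lower and 9 higher, with a median of -0.08. At an adjusted p of 0.05 none of the 10 was called (limma, adjusted over all 34288 probes tested, of which 4 or 0.0117% passed), and 1 of 10, Nfkbiz, passed an unadjusted P of 0.05, as 9.02% of all probes tested did. The arrays of the genotypes did not overlap for 1 of 10, Nfkbib, as for 9.95% of all probes tested. Both counts are near the background share.

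**Figure D1:**
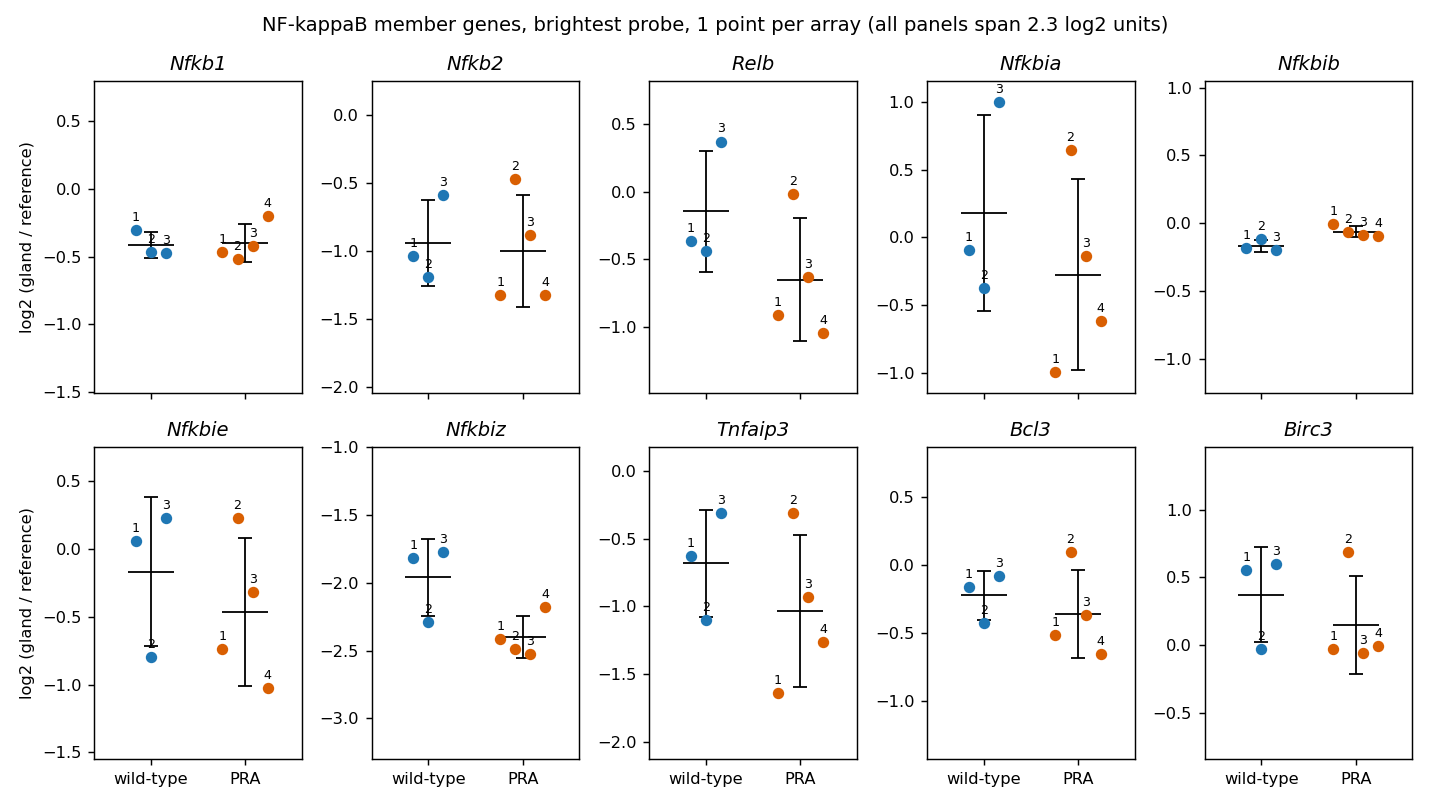
Log2 ratio of gland over reference (vertical axis) for the brightest probe of each of the 10 members, with 1 point per array numbered as in the text, wild-type in blue and PRA transgenic in orange. The horizontal line and bar are the mean and SD of each genotype (n = 3 and n = 4). In 7 panels points 3 of wild-type and 2 of PRA sit on top, while Nfkb1 and Nfkbib are nearly flat.

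Among the subunits, Relb had the largest difference, and with all 7 arrays that of any member. That rank did not hold throughout: Nfkbia was further from 0 without WT 2 (-0.73) and without PRA 2 (-0.76), and Nfkbiz without WT 3 (-0.35), PRA 1 (-0.44) or PRA 4 (-0.51) and with array weights (-0.50 against -0.38). RelB is the subunit of the alternative pathway, which pairs with p52, the product of Nfkb2. Its log2 ratios were -0.36, -0.44 and 0.37 on WT 1 to WT 3 and -0.91, -0.02, -0.63 and -1.04 on PRA 1 to PRA 4. WT 3 was the highest and PRA 2 lay above both remaining wild-type animals, so the genotypes overlapped. The fold change on the log2 scale was -0.50 (SE 0.30, 95% interval -1.22 to 0.21, limma adjusted p = 0.678). Without WT 3 it was -0.25, and without PRA 2 -0.71 (unadjusted P = 0.0302, adjusted p = 0.628). A second Relb probe had the same highest arrays, WT 3 at 0.63 and PRA 2 at 0.17, and the same 2 lowest, and gave -0.44 (SE 0.31). The dimmest Relb probe gave 0.18 (SE 0.16), the opposite direction.

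Nfkb2, which encodes p100 and its processed form p52, did not pass the test, with values of -1.04, -1.19 and -0.59 in wild-type and -1.32, -0.47, -0.88 and -1.33 in PRA transgenics. PRA 2 was the highest of all 7 and PRA 4 the lowest, and the fold change was -0.06 (SE 0.26, adjusted p = 0.974). Its splice-spanning probe, printed above, gave 0.02 (SE 0.32) with the same highest arrays. Bcl3 encodes a nuclear IkappaB protein that binds p50 and p52 dimers and can activate transcription. Its values were -0.17, -0.43 and -0.08 in wild-type and -0.52, 0.10, -0.37 and -0.66 in PRA transgenics, with PRA 2 again on top, and its fold change was -0.14 (SE 0.20, adjusted p = 0.889).

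Nfkb1, the gene of p105 and p50, was the steadiest of the subunits. It ranged from -0.48 to -0.30 in wild-type and from -0.52 to -0.20 in PRA transgenics, with PRA 4 highest and PRA 2 lowest, so that its order was unlike that of Nfkb2 and Relb. The fold change was 0.01 (SE 0.13), and the sign turned negative with Cy5 alone, after quantile normalization and with array weights. Of its 2 dimmer probes, A_55_P1968743 was -0.43, -0.49 and -0.71 in wild-type and -0.29, -0.27, -0.28 and -0.25 in PRA transgenics. On it all PRA values lay above all wild-type values, with a fold change of 0.27 (SE 0.12, unadjusted P = 0.0491, adjusted p = 0.550), whereas the other gave -0.11 (SE 0.15), so that the probes of Nfkb1 disagreed in direction.

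Of the classical inhibitors, Nfkbia and Nfkbie varied together and Nfkbib hardly varied. Nfkbia encodes IkappaBalpha, the inhibitor that is lost and remade fastest after a signal. Its log2 ratios were -0.09, -0.37 and 1.00 on WT 1 to WT 3 and -0.99, 0.64, -0.14 and -0.61 on PRA 1 to PRA 4. The spread within PRA transgenics, 1.63 from lowest to highest, was larger than the difference between genotypes, -0.45 (SE 0.46, 95% interval -1.55 to 0.64, adjusted p = 0.820). Without WT 3 that difference was -0.05, and without PRA 2 it was -0.76, and neither passed. Nfkbie, the gene of IkappaBepsilon, ran in parallel, at 0.06, -0.79 and 0.23 in wild-type and -0.74, 0.23, -0.32 and -1.02 in PRA transgenics, and its difference was -0.29 (SE 0.36, adjusted p = 0.857).

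Nfkbib, the gene of IkappaBbeta, was nearly constant. Its values were -0.18, -0.11 and -0.20 in wild-type and -0.01, -0.06, -0.08 and -0.09 in PRA transgenics. Every PRA value lay above every wild-type value, the nearest being -0.11 on WT 2 and -0.09 on PRA 4, and the fold change of 0.10 (SE 0.10) had an adjusted p of 0.814. With Cy5 alone as deposited the sign turned (-0.14); the median over all probes tested was -0.20 on that scale. A second Nfkbib probe gave 0.08 (SE 0.10) with overlapping genotypes. The residual SD within genotype, a measure of how much animals of 1 genotype differ, was 0.04 for Nfkbib, at the 0.3th percentile of all probes tested, against 0.71 for Nfkbia, at the 91.4th.

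Nfkbiz was the member with the lowest unadjusted P in limma. It encodes IkappaBzeta, a nuclear, inducible member of the family that acts with p50 on secondary response genes. The values were -1.82, -2.29 and -1.77 in wild-type and -2.41, -2.49, -2.52 and -2.18 in PRA transgenics. PRA 4 lay above WT 2, and the other PRA arrays lay below all wild-type arrays. The fold change was -0.44 (SE 0.17, 95% interval -0.84 to -0.04, unadjusted P = 0.0343, adjusted p = 0.511). A second, dimmer probe gave 0.02 (SE 0.13). The unadjusted P of the brightest probe lay above 0.05 when WT 1, WT 3, PRA 1, PRA 2 or PRA 3 was left out, between 0.0635 and 0.116.

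A set of 10 immediate-early response genes (Fos, Fosb, Jun, Junb, Egr1, Ier2, Atf3, Dusp1, Zfp36, Nr4a1), which many stimuli switch on within minutes, was set beside Nfkbiz. All 10 were well above background on all arrays, and their mean log2 ratio ran from -1.71 to -1.21 in wild-type and from -2.36 to -1.85 in PRA transgenics, with no overlap, as for 9.95% of single probes tested. Fosb, Junb, Egr1, Ier2, Zfp36 and Nr4a1 also stand in a list of genes that the study found lower in PRA transgenics on these same arrays. The study assigned them to TNF signalling through NF-kappaB, the pathway it reported as most downregulated. The direction and order of the mean are therefore not independent of that list, and a share of single probes is not a background for a mean of several genes. The immediate-early set was not tested, and its part in the Nfkbiz value was not tested.

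Tnfaip3 and Birc3 encode regulators of the ubiquitin signals upstream of the kinases. Tnfaip3 (A20) is a ubiquitin-editing enzyme that damps TNF receptor signalling and is itself a classical NF-kappaB target. Its values were -0.63, -1.10 and -0.32 in wild-type and -1.64, -0.31, -0.93 and -1.26 in PRA transgenics, with PRA 2 and WT 3 almost equal at the top, and the difference was -0.35 (SE 0.33, adjusted p = 0.806). Birc3 (cIAP2), a ubiquitin ligase of the TNF receptor complex, was at 0.55, -0.03 and 0.60 in wild-type and -0.03, 0.69, -0.06 and -0.01 in PRA transgenics. WT 1, WT 3 and PRA 2 formed a high group and the remaining 4 arrays lay between -0.06 and -0.01, and the difference was -0.22 (SE 0.25, adjusted p = 0.835).

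Birc3 is the member whose probes disagreed most. A second probe gave -0.38 (SE 0.38), and 2 probes designed on other transcripts gave 0.36 (SE 0.36) and 0.33 (SE 0.54). Their reference signal was not well above background on any PRA array, so these ratios rest on a dim denominator. On PRA 4 the second probe read 7.56 in Cy5 and 7.92 in Cy3 (log2 signal as deposited), against 4.77 to 5.98 and 4.21 to 5.28 on the other 6 arrays. Its log2 ratio on PRA 4 was -0.36, the lowest of all arrays, against -0.25 to 1.09 on the other 6. The fold change of -0.38 for this probe includes that array.

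**Figure D2:**
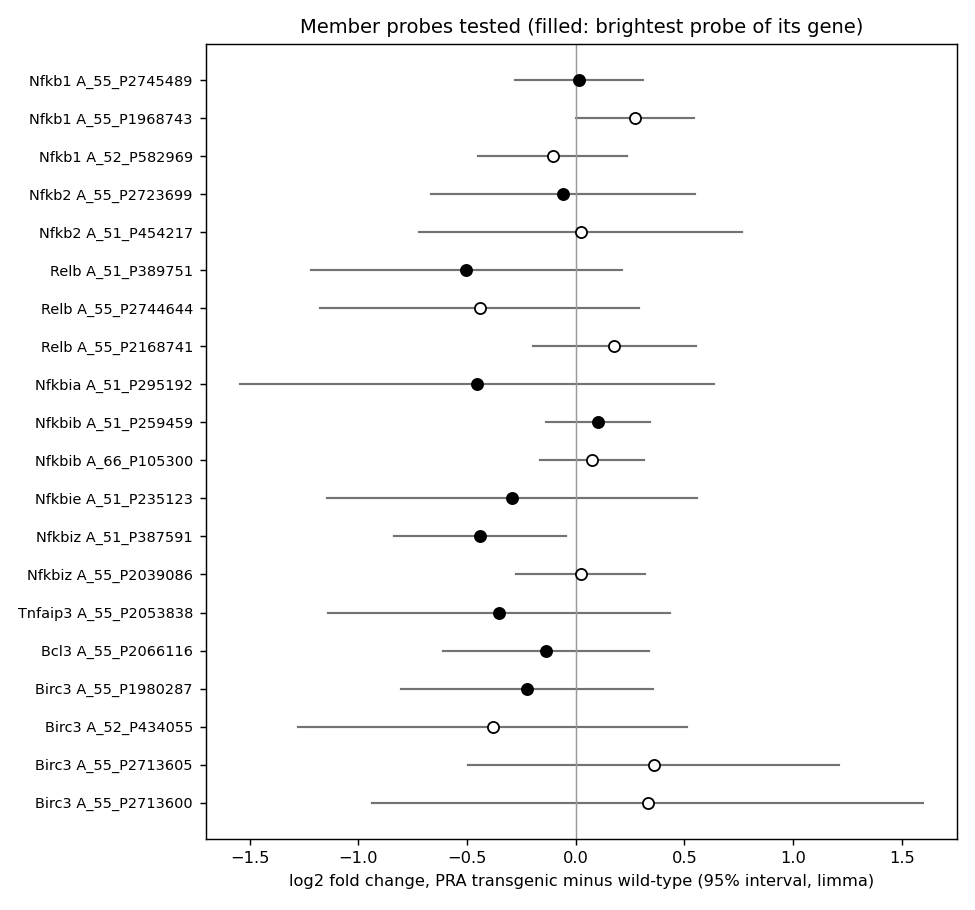
Log2 fold change of PRA transgenic minus wild-type (horizontal axis) for each of the 20 member probes tested, with the 95% interval from limma. Filled circles are the brightest probe of each gene, open circles the others. The interval excludes 0 only for the brightest Nfkbiz probe, on the lower side, and for 1 Nfkb1 probe, on the higher side.

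These genes varied between animals of the same genotype, and much of that variation was shared among them. For 7 of the 10 members, Nfkb2, Relb, Nfkbia, Nfkbie, Tnfaip3, Bcl3 and Birc3, the 2 highest arrays were WT 3 and PRA 2, as for 7.72% of all probes tested. For 5 of the 10 the 2 lowest arrays were PRA 1 and PRA 4, as for 3.55% of all probes tested, and the same 5 genes met both, as did 0.75% of probes. These pairs of arrays were named from the members' own values, so the shares are a description and no test. With each gene centred on its mean over the 7 arrays, the mean of the 7 genes was 0.16, -0.23 and 0.57 on WT 1 to WT 3 and -0.48, 0.52, -0.08 and -0.45 on PRA 1 to PRA 4. Each genotype held 1 of the 2 highest arrays, which the choice of the 7 genes fixed, and the 2 lowest arrays were both PRA transgenic.

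**Figure D3:**
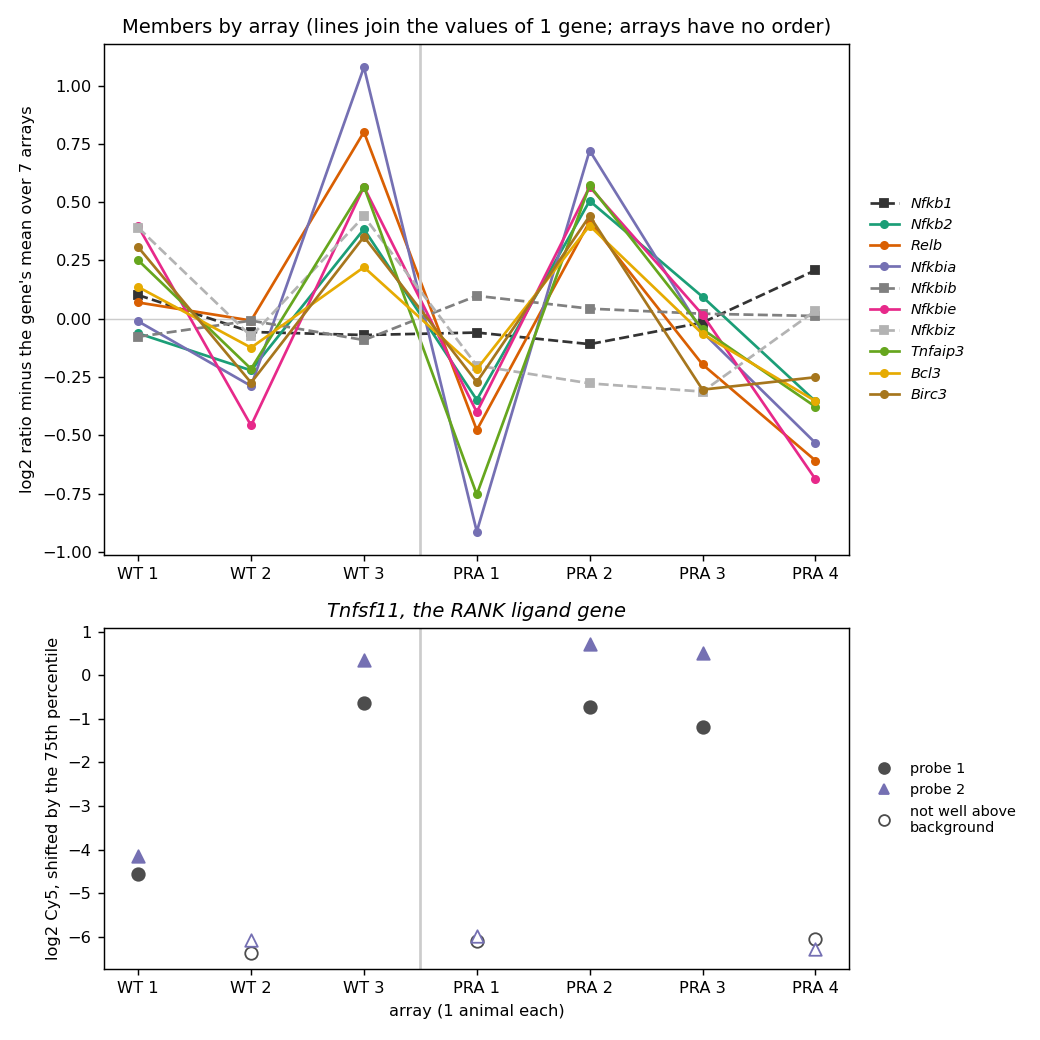
Upper panel, log2 ratio of each member minus its own mean over the 7 arrays (vertical axis) by array, with solid lines for the 7 genes that peak on WT 3 and PRA 2 and dashed grey lines for Nfkb1, Nfkbib and Nfkbiz. Lower panel, log2 Cy5 signal of both Tnfsf11 probes on the same arrays, each array shifted by its 75th percentile, open where the gland signal was not well above background; the 3 arrays with open symbols are the 3 lowest for the mean of the 7 genes.

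Over all 45 pairs of members, 18 had a Pearson correlation over the 7 arrays that passed an adjusted p of 0.05 (exact permutation test, two-sided, adjusted over the 45 pairs), and 12 had a Spearman correlation that did. One of the 18 was negative, Nfkbib with Nfkbiz (r = -0.88, rho = -0.82, adjusted p = 0.0362 and 0.0960 by exact permutation). It weakened to r = -0.41 without the 2 arrays farthest from the median of Nfkbib. The other 17 lay among the 7 genes named above. These 7 were picked out by their shared order, so the following values only describe them: r ran from 0.78 to 0.96 with a median of 0.90, and r of the deviations from each genotype mean ran from 0.79 to 0.98. The closest pair was Nfkbia with Tnfaip3 (r = 0.96, rho = 0.96, adjusted p = 0.0268 and 0.0312 by exact permutation). This pair kept r = 0.96 without the 2 arrays farthest from the median of Nfkbia, WT 3 and PRA 1. Of the 21 pairs, 19 kept r above 0.70 without the 2 arrays farthest from the median of 1 gene of the pair. That gene is the first in the order of members given at the start, so the arrays left out differ between pairs. The count therefore does not show how the pairs stand without WT 3 and PRA 2. For pairs of Nfkb2 with the others of the 7, these were the 2 arrays left out. There r dropped to 0.27 with Birc3 and 0.63 with Relb, and was 0.73 to 0.85 with Nfkbia, Nfkbie, Tnfaip3 and Bcl3.

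Other probes of the 7 genes measure the same RNA and are no further animals. Of their 6 other tested probes, 3 also had WT 3 and PRA 2 on top, 1 each for Nfkb2, Relb and Birc3. The Birc3 probe among them had a reference signal well above background on 1 of 4 PRA arrays. The 3 that did not were the dimmest probe of Relb and the Birc3 probes with no such signal on any PRA array. Outside the 7 genes, the dimmer tested Nfkbiz probe also had WT 3 and PRA 2 on top, at -2.31 and -2.13. The dimmer probes of Nfkb1 and Nfkbib did not. Whether Nfkbiz showed this order therefore depended on the probe.

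The shared pattern was in the gland channel. With each array shifted by its 75th percentile, the Cy5 signal of Nfkbia ran from 3.57 on PRA 1 to 5.40 on WT 3, a range of 1.83 on the log2 scale, while its Cy3 signal ranged over 0.17. Relb, Tnfaip3 and Nfkbie had Cy5 ranges of 1.55, 1.43 and 1.40, and Birc3, Nfkb2 and Bcl3 of 0.99, 0.82 and 0.74. The Cy3 range of the 7 genes lay between 0.14 (Relb) and 0.35 (Birc3). Outside the 7, Nfkbiz had a Cy5 range of 0.88 against 0.18 in Cy3, wider in Cy5 than Nfkb2 or Bcl3. Nfkb1 and Nfkbib had the narrowest Cy5 ranges, 0.30 and 0.25, against Cy3 ranges of 0.15 each.

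**Figure D4:**
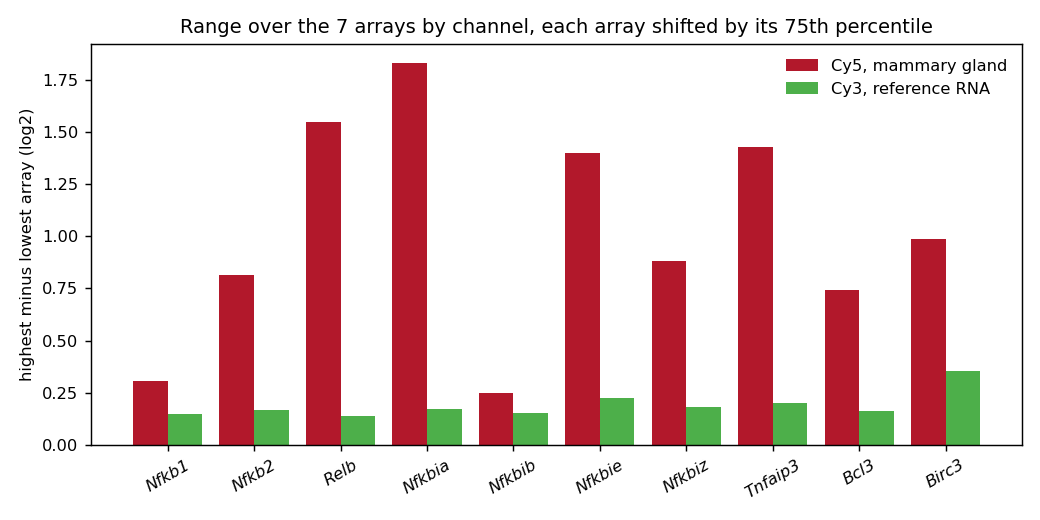
Highest minus lowest array (vertical axis, log2 units) of the Cy5 signal from the gland (red bars) and the Cy3 signal from the reference RNA (green bars), for the brightest probe of each member after each array was shifted by its 75th percentile. Nfkbia has the tallest Cy5 bar at 1.83, and no Cy3 bar exceeds 0.35.

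Tnfsf11, the RANKL gene, was set beside this pattern after its values had been seen. No array had a reference signal well above background for it, so its log2 Cy5 signal is given, each array shifted by its 75th percentile. The brighter probe read -4.14, -6.08 and 0.35 on WT 1 to WT 3 and -5.98, 0.72, 0.50 and -6.28 on PRA 1 to PRA 4. WT 3, PRA 2, PRA 3 and WT 1 were well above background and the other 3 arrays were not, on both probes. The 3 arrays where Tnfsf11 was not well above background, WT 2, PRA 1 and PRA 4, were also the 3 lowest for the mean of the 7 genes. PRA 3 was high for Tnfsf11 and in the middle for the 7 genes, and the order among WT 3, PRA 2 and PRA 3 differed between the 2 probes. Since only some arrays of each genotype measured Tnfsf11, it was not tested, and its part in the pattern was not tested either. Its receptor gene Tnfrsf11a (RANK) was highest on WT 3, at 1.96, and otherwise in another order, with PRA 4 at 1.69 and PRA 2 at 1.53.

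Cell type markers were compared with the same order of arrays. The luminal list, 5 of 5 genes well above background on all arrays, had mean log2 ratios of 2.21, 1.45 and 2.10 in wild-type and 1.47, 2.11, 1.25 and 1.83 in PRA transgenics, so that WT 3 and PRA 2 were among the 3 highest arrays but PRA 4, low for the 7 genes, lay in the middle. The basal list (4 of 4) ran from 1.57 to 1.93 in wild-type and from 1.73 to 1.82 in PRA transgenics, and its 2 highest arrays were WT 3 and PRA 2, as for the 7 genes. White adipocyte markers (5 of 5) lay in nearly the reverse order of the 7 genes, at 5.92, 6.14 and 5.86 in wild-type and 6.52, 5.89, 6.07 and 6.11 in PRA transgenics, lowest on WT 3 and PRA 2 and highest on PRA 1. Endothelial markers (5 of 5) were lowest on PRA 2, at 4.36, and highest on PRA 1, at 5.37, with wild-type from 4.78 to 5.00. Fibroblast markers (5 of 5) ran from 1.29 to 1.73 in wild-type and from 1.16 to 1.79 in PRA transgenics, highest on PRA 4. The macrophage list (6 of 6) was highest on PRA 4, at 2.14, where the 7 genes were low, and ran from 1.14 to 1.71 on the other arrays. T cell markers (6 of 7 on all arrays, Cd8a on fewer) stood at 2.69 on WT 1 and from 0.07 to 0.86 elsewhere, and B cell markers (4 of 5, Cd79a on fewer) at 0.93 on WT 1 and from -1.25 to -0.67 elsewhere. The part of cell makeup in the shared pattern was not tested.

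The genes most like the members over the 7 arrays were sought among 16786 genes with a tested probe. For the mean of all 10 members the closest were Panx1 (r = 0.995), a membrane channel gene, Trim7 (0.987), Donson (0.986), 6030442E23Rik (0.981) and Eif2ak4 (0.970), and 117 genes (0.697%) had r above 0.90. Panx1 was at 0.57 on WT 3 and 0.39 on PRA 2 and at -0.52 and -0.51 on PRA 1 and PRA 4. For Relb they were Tle4 (0.989), Glod4, Six4, Irak1 (0.977) and Aaas (0.976), of which Irak1, the interleukin 1 receptor kinase, belongs to the pathway itself, and 0.661% of genes had r above 0.90. For Nfkbia they were H3c7 (0.989), 4931428F04Rik, Nono, Cyp1b1 and Spint2 (0.983), with 1.56% of genes above 0.90. These are ranks out of many genes over 7 arrays and are given as a description.

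Beyond the members, 79 genes of the pathway were listed by role, and 71 had a tested probe. None passed an adjusted p of 0.05 (limma), 7 passed an unadjusted P of 0.05, 6 lower and 1 higher, and the median log2 fold change was -0.13, beside 9.02% of all probes tested passing the unadjusted threshold and a median of 0.02. The count was 19 with Cy5 alone as deposited, a measure in which the median over all probes tested was -0.20. The genotypes did not overlap for 8 genes, 5 lower and 3 higher, beside 9.95% of all probes tested.

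None of the kinase genes passed the test. All 7 were tested, with log2 fold changes from -0.15 (Tbk1) to 0.17 (Ikbkg) and a median of 0.02, and this covers the IkappaB kinases Chuk and Ikbkb at 0.06 and 0.02 and the alternative pathway kinase gene Map3k14 at 0.06. The other subunits, Rela and Rel, gave -0.09 (SE 0.14) and -0.40 (SE 0.20), and neither passed. Of 20 adaptors and ligases, 10 were lower and 10 higher, and 2 passed the unadjusted threshold in limma: Malt1 at -0.51 (SE 0.21, adjusted p = 0.537) and Bcl10 at -0.34 (SE 0.14, adjusted p = 0.531), which encode partners in the complex below antigen receptors. Malt1 was 0.70, 0.56 and 0.05 in wild-type and 0.24, -0.09, -0.38 and -0.07 in PRA transgenics, so that PRA 1 lay above WT 3, while for Bcl10 the genotypes did not overlap.

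Ligands and receptors were spread wider. Of 5 ligand genes tested, Lta (lymphotoxin alpha) passed the unadjusted threshold, with 1.78, 0.34 and -0.27 in wild-type and -0.48, -0.47, -0.36 and -0.70 in PRA transgenics (log2 fold change -1.12, SE 0.44, limma adjusted p = 0.527). WT 1, the array with the highest T and B cell markers, carried its highest value, and also those of Ltb (1.36, against -1.60 to -1.01 elsewhere), Tnfrsf13c (2.51) and Cd40 (0.76). The part of those cells was not tested. Tnf gave 0.02 (SE 0.20). Among 9 receptor genes, Tlr4, the lipopolysaccharide receptor gene, was the only one past the unadjusted threshold, with 0.44, 0.10 and -0.41 in wild-type and 0.92, 0.54, 0.76 and 1.26 in PRA transgenics. All PRA arrays lay above all wild-type arrays, and the difference was 0.83 (SE 0.25, limma adjusted p = 0.425).

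No known target gene passed the adjusted test. Of 18 tested, 15 had a lower mean in PRA transgenics and 3 a higher one, with a median log2 fold change of -0.25, where 45.8% of all probes tested had a lower mean, and 3 passed the unadjusted threshold, as 9.02% of all probes tested did. Ccl2, a monocyte chemokine gene, was -2.26, -2.13 and -2.30 in wild-type and -2.64, -2.87, -2.95 and -2.76 in PRA transgenics (log2 fold change -0.58, SE 0.12, limma adjusted p = 0.340). Cxcl1, a neutrophil chemokine gene, was -3.83, -3.83 and -3.94 against -4.19, -4.35, -4.27 and -4.29 (-0.41, SE 0.11, limma adjusted p = 0.405). For both, all PRA arrays lay below all wild-type arrays. Ier3, an immediate-early survival gene, was -2.86, -3.44 and -2.81 against -3.35, -3.73, -3.84 and -3.69 (-0.61, SE 0.20, limma adjusted p = 0.462), with PRA 1 above WT 2. Ccl2, Ier3, Malt1 and Tlr4 also stand in lists that the study drew from these same arrays, so their direction here is not independent of those lists.

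The target genes did not all share the animal pattern of the 7 members. Of the 18 tested, only the adhesion genes Vcam1 and Icam1 and Bcl2l1 had WT 3 and PRA 2 as their 2 highest arrays. Over all probes tested, 7.72% had that order. Vcam1 was at -0.60 and -0.59 with PRA 1 lowest at -1.61, and Icam1 at 1.35 and 1.36 with PRA 1 lowest at 0.32. Bcl2l1 was at 0.45 and 0.39, with WT 2 lowest at -0.06. Elsewhere in the pathway list, Tnf, Tlr2, Traf2, Irak1, Tab2 and Birc2 had the same 2 highest arrays. Ccl2 and Cxcl1 instead ordered by genotype, as did the mean of the immediate-early list, which is not independent of the study's own list. Ptgs2 was well above background on all 3 wild-type arrays and on 1 PRA array, at -6.69 to -6.03 and -8.25 to -5.84, and did not pass (adjusted p = 0.711).

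**Figure D5:**
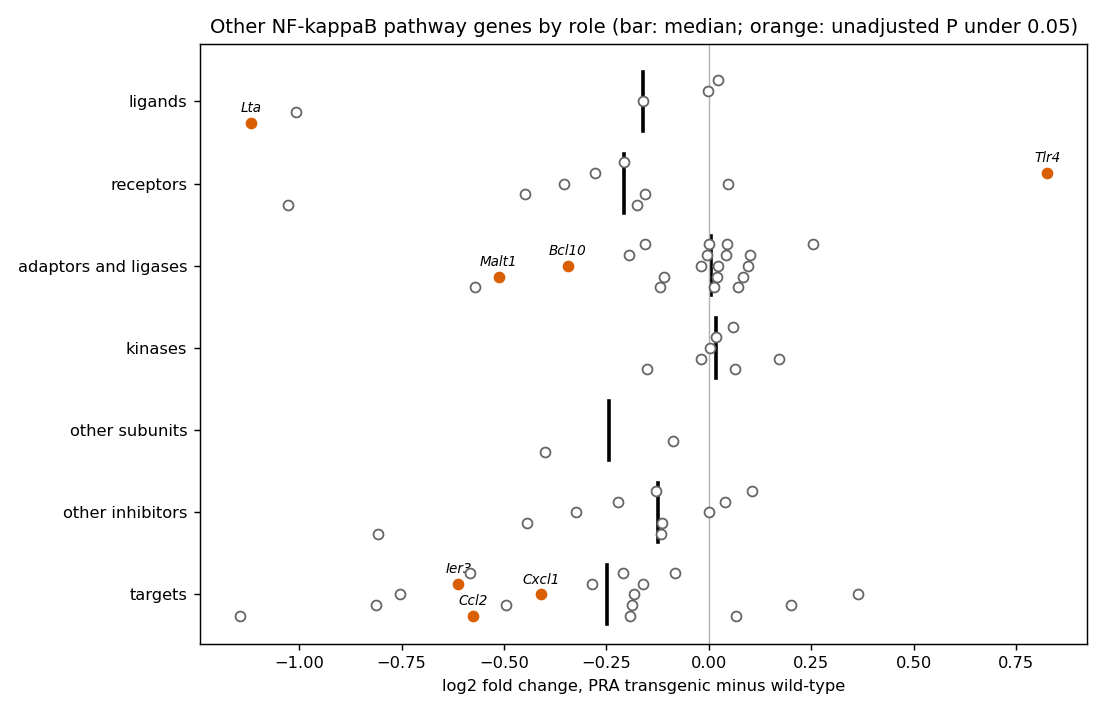
Log2 fold change of PRA transgenic minus wild-type (horizontal axis) for the 71 tested pathway genes, grouped by role, with 1 point per gene and a black bar at the median of each role. Orange points with names are the 7 genes with an unadjusted P under 0.05, of which Tlr4 at 0.83 is the only one above 0. The kinases lie between -0.15 and 0.17.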

How the data were processed

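Each array was read from the deposited Agilent scanner output (Feature Extraction 12.0 per the labels), in which the authors' processed red and green signals are intensity values already background-subtracted and dye-normalized. The deposited series table holds log2 ratios of the same arrays and was used as an alternative. From the intensities, log2 of Cy5 over Cy3 was computed per spot, control and outlier spots were dropped, and a mean was taken over the spots of each probe. A probe was kept, as 34288 of 56605 were, if every array of either genotype had a Cy5 signal well above background. No member spot was saturated. Probes kept the gene name of the file for the members; others were matched to RefSeq (GRCm38.p6) by accession (32994), symbol (10224) or older symbol (520), and 12867 kept the file's name.

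The genotypes were compared with limma 3.58.1 in R 4.3.3 (lmFit, eBayes, Benjamini-Hochberg over all probes kept); precision is limited by the number of arrays. The fitting code was tested on simulated data. Correlations used exact permutation of the pairings. A gene is represented by its probe with the highest mean log2 Cy5. All members were named, pathway genes with an unadjusted P under 0.05 (at most 15), and the 5 genes most alike in pattern to the members' mean, Relb and Nfkbia, among genes named in RefSeq; other genes named, such as Vcam1 and Tnfrsf11a, were chosen after their values were seen. Members and gene lists were chosen with earlier results of these data known. Replicate numbers did not pair the samples: deviations of same-numbered animals correlated at 0.14, -0.50 and 0.08. The 20 alternatives covered background correction, filter, scaling, test, weights, a replicate block, the probe that stands for a gene, and each array left out.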

Additional observations from a re-analysis of the deposited data

Results flagged for a closer look

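In groups of 4 samples, the extreme sample's gap to its neighbour was set against Dixon's 95% critical value of 0.829, for 20 sets of values in PRA transgenics, and 2 exceeded it where chance gives about 1. For the brightest Birc3 probe the gap of PRA 2, at 0.69 against -0.06 to -0.01 on the other PRA arrays, was 0.929 of the group's range. PRA 2 was also the highest PRA array for the 6 other members that share its pattern, which the way they were picked fixed in advance. For the skeletal muscle list the gap of PRA 4, at a mean log2 ratio of 4.06 against -0.82 to -0.36 on the other PRA arrays, was 0.905 of the range. Only 3 of its 5 genes were well above background on all arrays, Ckm and Myh4 on fewer. Some of these means therefore include signals not well above background. WT 1 and WT 3 carried muscle markers as well, at 3.55 and 4.65. WT 3 was high and PRA 4 low for the 7 co-varying members.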

How the results depend on the processing

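Among the fold changes of the 10 members recomputed under 20 alternatives, 185 kept their direction and side of the threshold and 15 reversed, none passed an adjusted p of 0.05 (lowest 0.241, Nfkbiz with Cy5 alone as deposited), and Relb, Nfkbia, Nfkbie, Nfkbiz, Tnfaip3 and Bcl3 stayed lower in PRA transgenics in every one. Nfkb1 reversed to -0.23 with Cy5 alone as deposited, -0.020 with Cy5 shifted by the 75th percentile, -0.0051 after quantile normalization and -0.026 with array weights, and ranged from -0.053 to 0.069 with an array left out. Nfkb2 reversed to 0.054 with array weights and ranged from -0.24 to 0.12 with an array left out. Nfkbib reversed to -0.14 with Cy5 alone as deposited and Birc3 to 0.027 as the median over its probes. The cause was not tested.

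The count of members past an unadjusted P of 0.05 was 1, against 0 with normexp and loess, 0 after quantile normalization and 0 as the median over probes. It was 2 with the methods' t-test (Nfkbib and Nfkbiz), 3 with Cy5 alone as deposited, and 0 to 1 with an array left out. That of the pathway list was 7, against 19 with Cy5 alone as deposited, 11 with array weights and 4 to 9 with an array left out. Over all probes, 4 passed an adjusted p of 0.05, against 15 without the filter, 11 with Cy5 alone as deposited, 11 with array weights, 1 with the methods' t-test and 1 to 12 with an array left out (1 without PRA 3, 2 without WT 3, 12 without PRA 4), and 3094 passed the unadjusted threshold, against 5154 without the filter, which tests more probes.

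With the replicate block, 0 probes passed an adjusted p of 0.05, 11 pathway genes and 1 member passed the unadjusted threshold, Nfkb1 reversed to -0.053 and Nfkb2 to 0.051; the paired fit rests on numbers that did not pair the animals. The slide could not be fitted as a block, since all arrays lay on 1. Dim reference signal limits the ratios of the 3 dimmer Birc3 probes and of Tnfsf11.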
